A study of Caenorhabditis elegans with 3 samples.

Results

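The genes described here encode the standing protein-folding machinery of *Caenorhabditis elegans*: the Hsp70, Hsp110 and Hsp90 chaperones, the J proteins that work with Hsp70, the subunits of the cytosolic chaperonin and the subunits of prefoldin. They were chosen by name, as features whose symbol in the platform annotation is dnj, cct or pfd with a number, or is *hsp-1*, *hsp-3*, *hsp-4*, *hsp-6*, *hsp-60*, *hsp-70*, *hsp-90* or *hsp-110*. The rule took 43 features of 41 genes, among 19292 genes and unnamed features measured on every array. All 41 genes were measured on all 3 arrays and no low values were filtered out. They comprise 6 genes of the Hsp70 class (Hsp110 included), *hsp-90*, 23 J protein genes, 6 chaperonin genes and 5 prefoldin genes. Of 51 protein-coding genes whose RefSeq symbol the rule would take, *cct-3*, *cct-8*, *dnj-10*, *dnj-20*, *dnj-26*, *dnj-28*, *dnj-29*, *dnj-30*, *hsp-60* and *pfd-2* had no feature of their own in the annotation and were not analysed here. The set is called constitutive, which textbook knowledge does not support for *hsp-70*, a heat-inducible gene, or for *hsp-4*, which is induced by stress in the endoplasmic reticulum (ER).

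Hsp70 chaperones bind exposed hydrophobic stretches of unfolded proteins and release them in a cycle driven by ATP. J proteins bring them clients and stimulate their ATPase, and Hsp110 exchanges their nucleotide. Prefoldin hands newly made actin and tubulin to the chaperonin, a closed double ring of related CCT subunits. Each compartment has its own set, with Hsp70 proteins of the BiP type in the ER and of the mortalin type in mitochondria.

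RNA of late L4 hermaphrodites, animals near the end of the last larval stage, was hybridised against wild-type mixed reference RNA on 3 arrays with 2 channels each, 1 array for each of 3 preps. The labels give no strain, age in hours, treatment or composition of the reference. Whether each prep had its own culture is not stated, and the spread between preps may be technical. The p-values rest on that spread, taken mostly from other genes and unnamed features and less from the tested gene's own values. Values are log2 ratios of late L4 over reference. That direction is likely but unproven, being read from the wording of the sample descriptions, which put the larval RNA before the reference. Every array had the same orientation, so a dye effect specific to a gene cannot be told apart from a difference between the RNAs. Spot intensities were not analysed here, so the signal over background behind a ratio is unknown and the number of arrays limits the precision. Between 19825 and 19903 features were measured per array, the array medians lay from -0.10 to 0.01, and the arrays correlated with each other at r = 0.69 to 0.73 across 19292 genes and unnamed features, which are not independent replicates. Of 10 measured sperm markers, 9 were higher in late L4 and 0 lower, with list medians of 3.74, 3.16 and 3.46 on preps 1, 2 and 3, while 4 of 11 oocyte and eggshell markers were lower and 0 higher. In muscle 4 of 7 markers were higher and 0 lower, and in the intestine 5 of 10 were higher and 1 lower. Of 9 neuronal markers 4 were lower and 0 higher. Among all rows 12.0% were higher and 10.8% lower. Because whole animals were measured, more cells of a type and more RNA per cell cannot be told apart.

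Against the reference, 8 of the 41 genes were higher in late L4, 3 were lower and 30 did not pass (limma, Benjamini-Hochberg adjusted p under 0.05 over all 19292 rows, 1 for each gene or unnamed feature). Among all rows 12.0% were higher and 10.8% lower, against 19.5% and 7.32% of these genes, so the share of lower genes was not above the background. The median of the mean log2 ratios was 0.27, against -0.03 over all rows. The 8 higher genes were *hsp-4*, *hsp-3*, *cct-7*, *dnj-7*, *hsp-1*, *hsp-110*, *cct-6* and *dnj-11*, and the 3 lower ones were *pfd-6*, *hsp-70* and *dnj-4*. Of the 41 genes, 6 passed at least 2-fold higher and 0 at least 2-fold lower, against 8.60% and 6.05% of all rows. All 3 arrays lay above 0 for 13 of the 41 genes and below 0 for 9, against 23.2% and 27.9% of all rows. The highest mean was 1.93 (*hsp-4*) and the lowest -0.93 (*pfd-6*), within a range over all rows of -5.08 to 5.81. The count of higher genes was 5 without prep 3, and that of lower genes 1 without prep 1 and 1 without prep 2. The fit without prep 2 took 1 common spread for all rows (standard error 0.34). A call lost there therefore reflects the mean and the fewer arrays, not the gene's own spread. By class, the median was 1.07 for Hsp70, 0.43 for the chaperonin, 0.06 for J proteins and -0.20 for prefoldin.

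**Figure D1:**
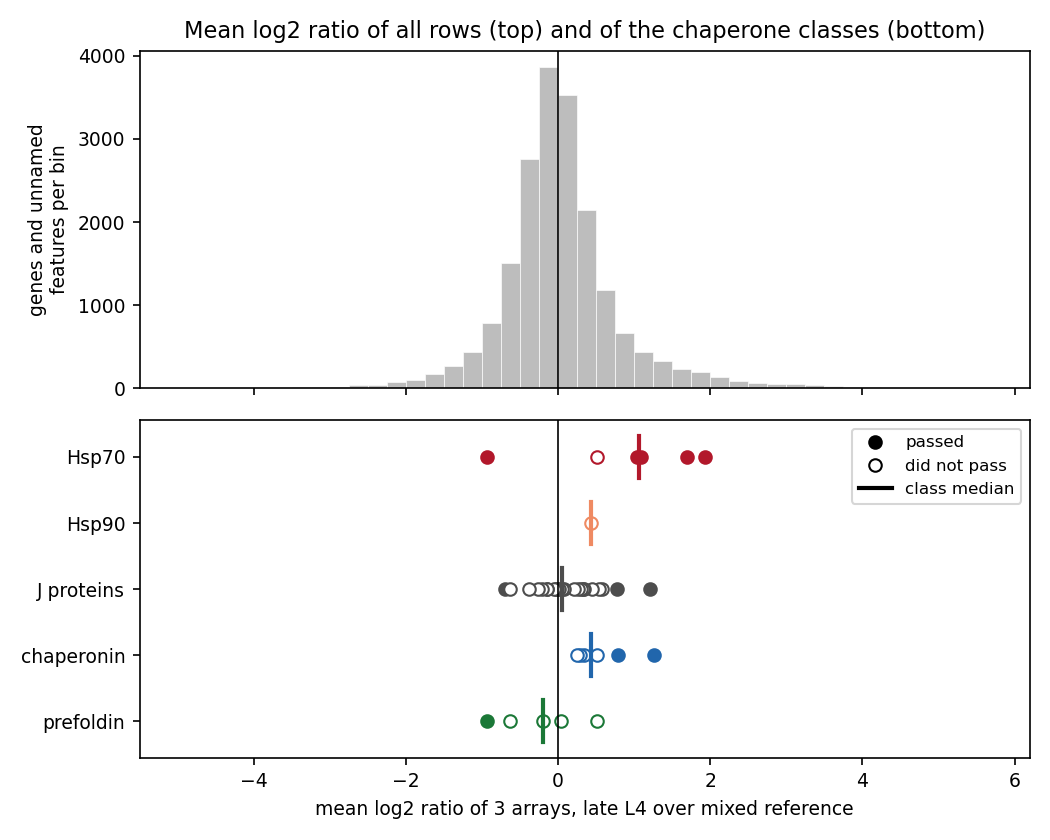
Top, the number of genes and unnamed features (y axis) per bin of the mean log2 ratio of late L4 over mixed reference (x axis); bottom, each chaperone gene by class on the same axis, filled where it passed the test, with vertical lines at class medians. The Hsp70 class has its median at 1.07, while the J proteins are centred near 0 with a median of 0.06, close to the median of -0.03 over all rows.

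The highest means were those of *hsp-4* and *hsp-3*. *hsp-4* (F43E2.8) and *hsp-3* (C15H9.6) encode the BiP-type Hsp70 proteins of the ER. *hsp-4* had 1.74, 2.18 and 1.86 (log2 ratios on preps 1, 2 and 3), a mean of 1.93 ± 0.22 (SD, n = 3), which is 3.80-fold higher in late L4 (limma, adjusted p = 2.90e-05). *hsp-3* had 1.85, 1.58 and 1.67, a mean of 1.70 ± 0.14 (SD, n = 3), or 3.24-fold higher (limma, adjusted p = 8.28e-05). On every prep both genes lay above all other members, except that *cct-7* at 2.10 was above *hsp-3* on prep 2. These paralogues are closely related and the probe type is not given, so their features may share signal. *dnj-7* (C55B6.2), which encodes a J protein related to human DNAJC3, an ER partner of BiP, had 1.04, 1.42 and 1.16, a mean of 1.21 ± 0.19 (SD, n = 3), 2.31-fold higher (limma, adjusted p = 0.00157). Leaving out any 1 prep left the calls of these 3 genes in place. *dnj-27* (Y47H9C.5), which encodes a J protein with thioredoxin domains like mammalian ERdj5, had values of -0.22, 0.30 and 0.84 on preps 1, 2 and 3. Those values crossed 0, and the mean of 0.31 did not pass (95% interval -0.25 to 0.86).

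In the cytosol, *hsp-1* (F26D10.3), the constitutive Hsc70 gene, had 1.25, 1.07 and 0.95 (log2 ratios on preps 1, 2 and 3). Its mean was 1.09 ± 0.15 (SD, n = 3), or 2.13-fold higher (limma, adjusted p = 0.00325), and the call remained without any 1 prep. *hsp-110* (C30C11.4), the Hsp110 gene, had 0.97, 0.80 and 1.36, a mean of 1.04 ± 0.29 (SD, n = 3) and 2.06-fold higher (limma, adjusted p = 0.00522). All 3 arrays were above 0 for both genes, although the call of *hsp-110* was lost without prep 3 (mean 0.88, adjusted p = 0.063). *hsp-70* (C12C8.1), which encodes a heat-inducible cytosolic Hsp70, lay on the other side, with -1.53, -0.91 and -0.35. Its mean of -0.93 ± 0.59 (SD, n = 3) was 1.91-fold lower (limma, adjusted p = 0.0188). Prep 1 gave the lowest value and prep 3 the highest, a spread of 1.17 log2 units, and without prep 1 the mean was -0.63 and did not pass (adjusted p = 0.19). All 3 values of *hsp-70* lay below all 3 values of *hsp-1*.

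*hsp-90* (C47E8.5), the cytosolic Hsp90 gene, had values of 0.33, 0.96 and -0.01 on preps 1, 2 and 3. The preps disagreed in sign, and the mean of 0.43 ± 0.49 (SD, n = 3) did not pass (limma, adjusted p = 0.28; 95% interval -0.12 to 0.97). *hsp-6* (C37H5.8), which encodes the mitochondrial Hsp70, had values of 1.00, 0.09 and 0.45. All were above 0 with prep 1 the highest, and the mean of 0.51 ± 0.46 (SD, n = 3) did not pass either (limma, adjusted p = 0.18; 95% interval -0.03 to 1.06). *hsp-6* was the Hsp70 class member that did not pass, so 4 of the 6 were higher (66.7%) and 1 was lower (16.7%). Among all rows 12.0% were higher and 10.8% lower.

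**Figure D2:**
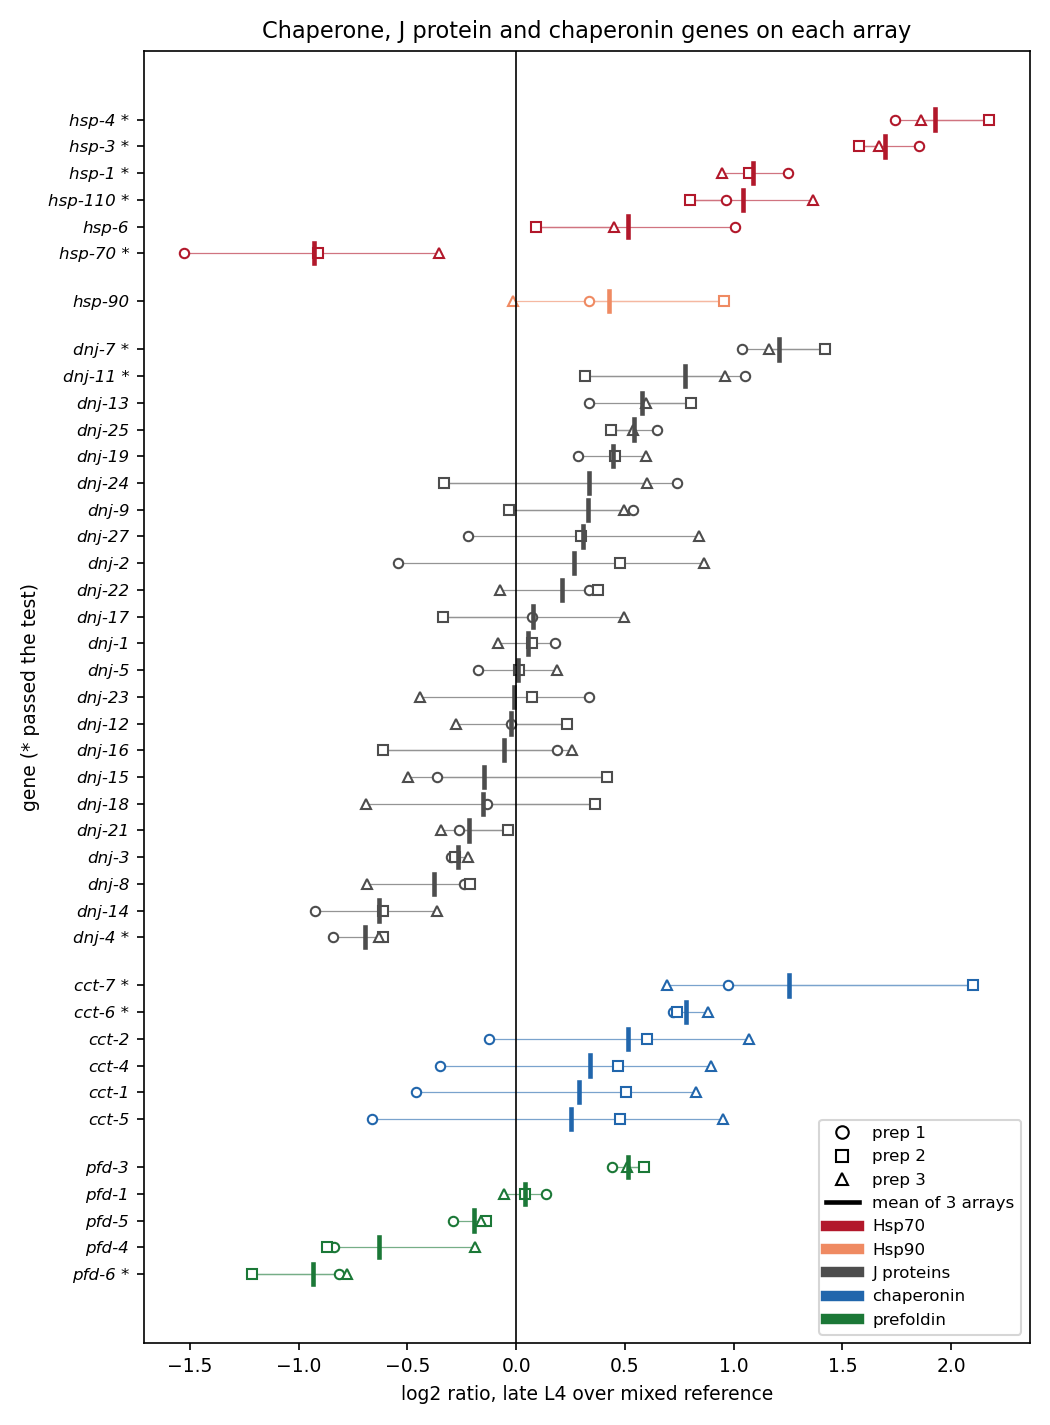
Log2 ratio of late L4 over mixed reference (x axis) for each of the 41 genes (y axis, by class and sorted by mean), with open symbols for preps 1, 2 and 3, a vertical bar at the mean and an asterisk at genes that passed the test. *hsp-4* and *hsp-3* lie above 1.5 on every prep, while *cct-1*, *cct-2*, *cct-4* and *cct-5* have prep 1 below 0 and preps 2 and 3 above 0.

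The 23 J protein genes as a class lay near the middle of the array: 2 were higher, 1 was lower and 20 did not pass, which is 8.70% higher and 4.35% lower, neither above the background. Beside *dnj-7*, the higher gene was *dnj-11* (F38A5.13), related to the ribosome-associated zuotin of yeast. It had 1.05, 0.32 and 0.96 (log2 ratios on preps 1, 2 and 3), a mean of 0.78 ± 0.40 (SD, n = 3) and 1.71-fold higher (limma, adjusted p = 0.0355). Prep 2 was the lowest, and the gene no longer passed without prep 1 (adjusted p = 0.19) or prep 3 (0.17). The lower gene was *dnj-4* (C01G8.4), with -0.84, -0.61 and -0.63, a mean of -0.70 ± 0.13 (SD, n = 3) and 1.62-fold lower (limma, adjusted p = 0.0457). Its 3 values were close together, but dropping whichever prep ended the call (adjusted p = 0.12 to 0.19), as did median centring of the arrays (0.066).

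Among the J protein genes that did not pass, the largest mean in size belonged to *dnj-14* (K02G10.8), which encodes the cysteine string protein of synaptic vesicles, with -0.92, -0.61 and -0.36 on preps 1, 2 and 3 and a mean of -0.63 ± 0.28 (SD, n = 3; limma, adjusted p = 0.076). All 3 of its values were below 0. Of the 9 neuronal markers, 4 were lower and 5 did not pass, with means from -2.67 to 0.16 and medians of -1.04, -0.41 and -0.71 on preps 1, 2 and 3; their part in the value of *dnj-14* was not tested. *dnj-13* (F54D5.8), of the class B J proteins that act with Hsc70, had values of 0.34, 0.81 and 0.60 and a mean of 0.58. *dnj-25* (W07A8.3), the auxilin gene, whose product uncoats clathrin vesicles with Hsc70, had 0.65, 0.43 and 0.54 and a mean of 0.54. *dnj-19* (T05C3.5), a class A J protein gene, had 0.29, 0.45 and 0.60 on the average of its features and a mean of 0.45. Its first feature had a mean of 0.58 and its second one of 0.31, both positive on every array. None of these genes passed (limma, adjusted p = 0.10, 0.12 and 0.21 for *dnj-13*, *dnj-25* and *dnj-19*), and their 95% intervals reached at most 1.09.

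The J protein genes that varied most between preps without passing were *dnj-2*, *dnj-24*, *dnj-27* and *dnj-18*, with SDs of 0.73, 0.58, 0.53 and 0.53 log2 units against a median SD of 0.36 over all rows. *dnj-2* (B0035.2) had -0.54, 0.48 and 0.86 on preps 1, 2 and 3. *dnj-24* (W03A5.7) had 0.74, -0.33 and 0.60, and *dnj-18* (T04A8.9) had -0.13, 0.36 and -0.69. Each of these genes had preps on both sides of 0, with prep 1 lowest for *dnj-2*, prep 2 lowest for *dnj-24* and prep 3 lowest for *dnj-18*. The other 12 J protein genes that did not pass had means from -0.38 (*dnj-8*) to 0.33 (*dnj-9*). Those named from them were picked after their values were seen. They include *dnj-12*, another class A gene, at -0.02 ± 0.26 and *dnj-21*, related to a subunit of the mitochondrial import motor, at -0.22 ± 0.16 (SD, n = 3 each); the mean of *dnj-12* turned to 0.02 under median centring. The smallest spread of the class was that of *dnj-3*, at -0.27 ± 0.04 (SD, n = 3).

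The subunits of the chaperonin form 1 complex, and in 5 of the 6 genes prep 1 was lowest and prep 3 highest. The exception was *cct-7*. That order was found in 16.8% of all rows. It also held in 6 of the 23 J protein genes (26.1%), and in 12 of all 41 genes (29.3%). *cct-7* (T10B5.5) had 0.97, 2.10 and 0.69 (log2 ratios on preps 1, 2 and 3), a mean of 1.26 ± 0.75 (SD, n = 3) and 2.39-fold higher in late L4 (limma, adjusted p = 0.00419). Prep 2 was far above the others, and without it the mean was 0.83 and the call was lost (adjusted p = 0.069). *cct-6* (F01F1.8) had 0.72, 0.74 and 0.88, a mean of 0.78 ± 0.09 (SD, n = 3) and 1.72-fold higher (limma, adjusted p = 0.0255). Its values lay close together, and with only the remaining arrays fitted it did not pass whichever prep was dropped (adjusted p = 0.072 to 0.13). So 2 of 6 subunit genes were higher (33.3%, against 12.0% of all rows), 0 were lower and 4 did not pass.

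The other 4 subunit genes had prep 1 below 0 and preps 2 and 3 above it. On preps 1, 2 and 3, *cct-1* (T05C12.7) had -0.46, 0.50 and 0.83, and *cct-2* (T21B10.7) had -0.13, 0.60 and 1.07. *cct-4* (K01C8.10) had -0.35, 0.47 and 0.90, and *cct-5* (C07G2.3) had -0.66, 0.48 and 0.95. The order of the preps was that of *cct-6*, but in *cct-6* all 3 values were above 0 and only 0.16 apart. The means of the 4 genes, of 0.29 ± 0.67, 0.51 ± 0.60, 0.34 ± 0.63 and 0.25 ± 0.83 (SD, n = 3 each), did not pass (limma, adjusted p = 0.52, 0.20, 0.43 and 0.61). The SDs were larger than those of 81.2 to 93.2% of all rows, and the mean of *cct-5* was -0.09 without prep 3.

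Prep 1 was the lowest of the 3 preps in 5 of the 6 chaperonin genes, against 30.0% of all rows. It lay more than 0.5 log2 units under both other preps in 4 of the 6 (66.7%), against 9.31% of all rows. The class median was -0.24, 0.55 and 0.89 on preps 1, 2 and 3, whereas the median of all rows was 0.01, -0.10 and -0.06. Each prep was on 1 array, so a difference between preps has no replicate check, and prep, array and the date in the array title cannot be told apart. The oocyte and eggshell markers also differed between preps, with list medians of -0.12, -0.30 and -1.28 on preps 1, 2 and 3; the sperm markers had 3.74, 3.16 and 3.46. The part of either marker list in the chaperonin values was not tested. Outside the chaperonin, *dnj-2*, *dnj-27* and *hsp-70* also had prep 1 lowest by more than 0.5, which makes 7 of the 41 genes.

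**Figure D3:**
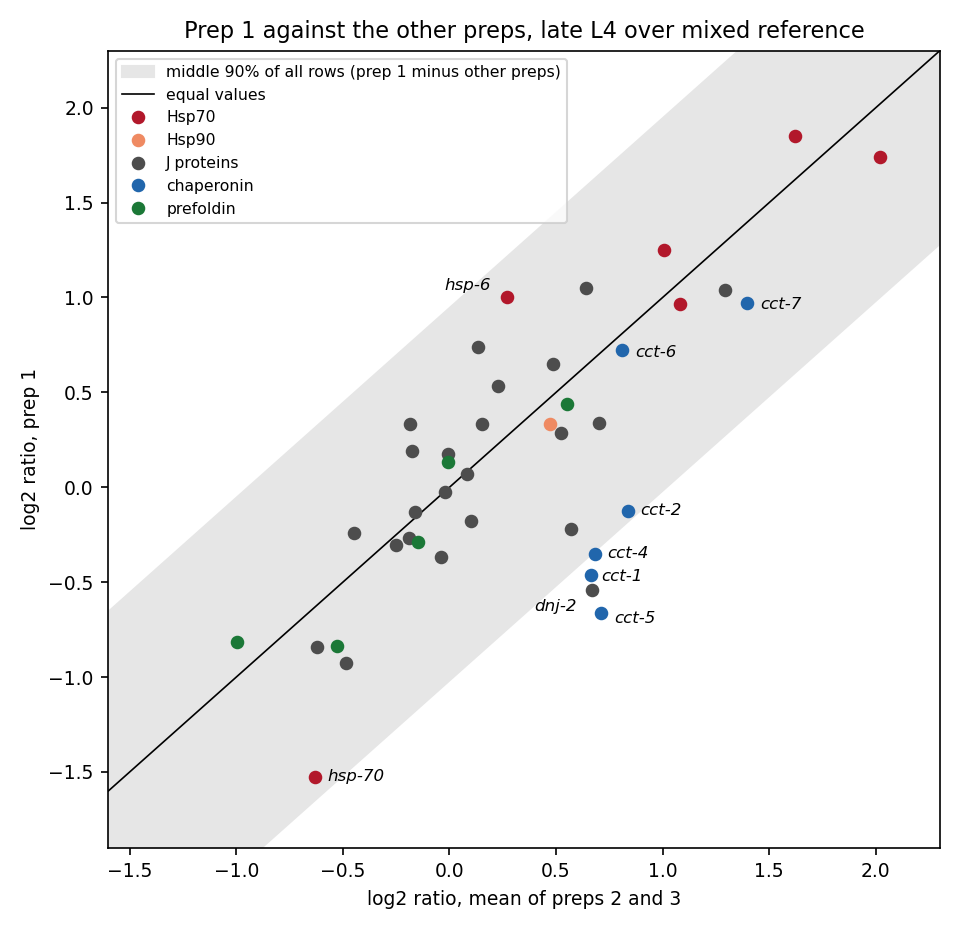
Log2 ratio of late L4 over mixed reference on prep 1 (y axis) against the mean of preps 2 and 3 (x axis) for the 41 genes, coloured by class; the line marks equal values and the grey band the middle 90% of all rows for the difference. *cct-1*, *cct-4*, *cct-5* and *dnj-2* lie below the band, whose lower edge is a difference of -1.02, *cct-2* lies just inside it, and *cct-6* and *cct-7* lie within it.

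Prefoldin showed no common direction. *pfd-6* (F21C3.5) had -0.81, -1.21 and -0.78 (log2 ratios on preps 1, 2 and 3), a mean of -0.93 ± 0.24 (SD, n = 3) and 1.91-fold lower in late L4 (limma, adjusted p = 0.0101). All arrays were below 0, and the call was lost without prep 2 (mean -0.79, adjusted p = 0.087). *pfd-4* (B0035.4) had -0.84, -0.87 and -0.19 and a mean of -0.63 ± 0.38 (SD, n = 3; limma, adjusted p = 0.084), with prep 3 the nearest to 0. *pfd-3* (T06G6.9) had 0.44, 0.59 and 0.51 over its features, a mean of 0.51 ± 0.07 (SD, n = 3) that did not pass (limma, adjusted p = 0.14); its features had means of 0.50 and 0.53. *pfd-1* (C08F8.1) had 0.13, 0.04 and -0.05, and *pfd-5* (R151.9) had -0.29, -0.14 and -0.16. In sum 1 of 5 prefoldin genes was lower, 0 were higher and 4 did not pass. Of all rows 10.8% were lower and 12.0% higher, and 5 genes are too few to compare with those shares. On every array the value of *pfd-3* was above those of the other prefoldin genes. That of *pfd-6* was below them, with the exception of prep 1, where *pfd-4* was the lowest. The median SD of the class was 0.09, against 0.65 in the chaperonin and 0.36 over all rows.

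Genes that work beside these chaperones were read from lists written from textbook knowledge. Of 12 measured ER folding enzymes and related genes, 6 were higher in late L4 and 0 lower, against 12.0% and 10.8% of all rows. The median of the list was 0.70. *pdi-2*, a protein disulphide isomerase that is also a subunit of the collagen prolyl hydroxylase, had 1.59, 1.91 and 2.15 (log2 ratios on preps 1, 2 and 3) and was 3.68-fold higher (limma, adjusted p = 3.90e-05). The isomerase genes *pdi-6* and *pdi-3* were 3.15-fold and 2.74-fold higher, and *pdi-3* rested on prep 2, without which it was at 0.83 and did not pass (adjusted p = 0.071). The count of 6 was 4 without prep 2 and 4 without prep 3. These isomerase genes were named for having the largest means in size among the 6 called genes. None of the called genes was lower, so their shared side of 0 adds nothing to that count. The 6 genes of the list that did not pass had means from -0.27 (*trx-4*) to 0.64 (*crt-1*).

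Of 15 measured regulators of stress responses, 4 were lower (26.7%) and 1 higher (6.67%), with a median of -0.25. The shares of all rows were 10.8% and 12.0%. *pek-1*, the PERK kinase of the ER stress response, had -1.16, -0.94 and -1.34 on preps 1, 2 and 3 and was 2.22-fold lower (limma, adjusted p = 0.00229). *atf-6*, a membrane-bound transcription factor of the same response, had -1.54, -1.04 and -0.79 and was 2.18-fold lower (limma, adjusted p = 0.00361). Both calls remained without any 1 prep. *ubl-5*, of the mitochondrial stress response, had -1.80, -0.37 and -0.38, a call that rested on prep 1 (mean -0.38 without it, adjusted p = 0.49) and was also lost without prep 3 (adjusted p = 0.053). The remaining called genes, named after their values were seen, were *hsf-1*, the heat shock transcription factor, at -0.78 ± 0.13 (limma, adjusted p = 0.0256) and *xbp-1*, the ER stress factor, at 0.75 ± 0.32 (SD, n = 3 each; limma, adjusted p = 0.0386). *hsf-1* did not pass whichever prep was dropped (adjusted p = 0.055 to 0.12), nor did *xbp-1* without prep 2 (0.26) or prep 3 (0.13). The count of lower regulators was 2 without prep 1 and 2 without prep 3.

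Of 11 other genes listed as co-chaperones of cytosolic Hsp70 and Hsp90, 4 were higher (36.4%) and 1 lower (9.09%), with a median of 0.21. The shares of all rows were 12.0% and 10.8%, and the count of higher genes was 2 without prep 1 and 2 without prep 2. The place of *stip-1* (mean 0.05) and *txdc-9* (-0.53) in that list is doubtful, and neither passed. *cdc-37*, which brings kinases to Hsp90, had 1.27, 1.17 and 1.12 on preps 1, 2 and 3 and was 2.28-fold higher (limma, adjusted p = 0.00159). *sti-1*, which links Hsp70 to Hsp90, was 1.92-fold higher, a call lost without prep 3 (limma, adjusted p = 0.089). *chn-1*, the CHIP ubiquitin ligase that binds both chaperones, had -1.11, -1.34 and -1.24 and was 2.35-fold lower (limma, adjusted p = 0.00122). The values of *cdc-37* and *chn-1* therefore lay on opposite sides of 0 on every array.

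Actin and tubulin genes, whose products are the main clients of the chaperonin, were mostly on the higher side, with a median of 0.83. Of 21 genes 11 were higher (52.4%) and 1 was lower (4.76%), against 12.0% and 10.8% of all rows. The tubulin genes *tba-4* and *tba-6* were 4.46-fold and 3.99-fold higher and the intestinal actin gene *act-5* 4.10-fold (limma, adjusted p = 3.07e-05, 4.65e-05 and 2.71e-05). Actin genes have near-identical copies, tubulin genes are also related in sequence, and the probe type is not given. Single members of both families and their count are therefore uncertain. The lower gene, named after its values were seen, was *tba-8* at -3.24, -0.16 and -0.51 on preps 1, 2 and 3, which rested on prep 1 (mean -0.34 without it, limma, adjusted p = 0.55) and was lost under median centring. Of 10 measured mitochondrial import, protease and other partner genes, with no co-chaperonin gene among them, limma called 0, and the median was 0.41. An unadjusted limma p under 0.05 was found for 3 of them (30.0%, against 33.1% of all rows). The nearest were *tomm-40*, of the outer membrane import pore, at 0.69 ± 0.39 and the protease gene *lonp-1* at 0.60 ± 0.12 (SD, n = 3 each; limma, adjusted p = 0.059 and 0.086). Of 12 small heat shock protein genes, 3 were lower and 0 higher, with a median of -0.31 (5 lower without prep 2), and *hsp-12.6* and *hsp-12.3* had means of -5.01 and -2.75. The remaining call, *sip-1*, was at -1.01 and not called without prep 3 (limma, adjusted p = 0.29).

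**Figure D4:**
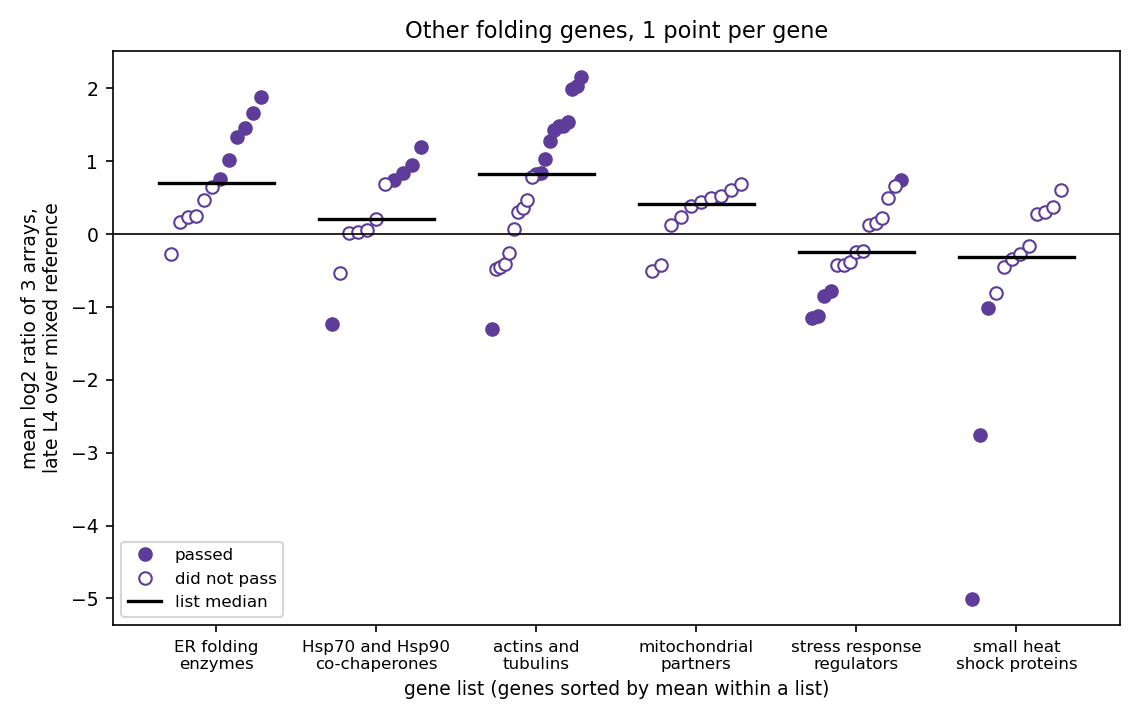
Mean log2 ratio of late L4 over mixed reference (y axis) for each gene of 6 lists of other folding genes (x axis), filled where the gene passed the test, with a horizontal line at each list's median. The medians run from 0.83 for actins and tubulins and 0.70 for ER folding enzymes down to -0.31 for small heat shock proteins, and the mitochondrial list holds open points alone.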

How the data were processed

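The authors deposited 1 log2 ratio per feature and array; as ratios, 100% of them fell on steps of 0.001 (tolerance 0.05 step). The labels name no dyes, background correction, normalization or probe type. Values were used as deposited. Of 20000 features, 15655 had 1 gene symbol, 198 several and 4147 none listed; RefSeq (WBcel235) gave the current symbol, by Entrez ID, of 15569. The 19736 features with values on all 3 arrays were collapsed to 1 mean per gene and array, giving 15112 named genes and 4180 unnamed features. The mean log2 ratio was tested against 0 with lmFit and eBayes of limma 3.58.1 (R 4.3.3), two-sided, with Benjamini-Hochberg adjustment over all 19292 rows and a threshold of 0.05. The fit had 2 residual and 12.8 prior degrees of freedom (prior SD 0.44), so the spread came mostly from other rows. Without prep 2 the spread was 1 common value for all rows. Whether the reference had more than 1 preparation is not stated, so the test may leave out the spread between reference preparations. Intervals are limma's, and SDs are over arrays. The fit was tested on simulated data.

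The members, lists and alternatives were chosen with earlier results of these data known. Named were all hsp, cct and pfd members, called J protein genes, the J protein genes not called with the 4 largest means and 4 largest SDs, and per list up to 3 called genes by size, filled to 2 by p; others are marked. Marker lists were used for counts and medians. Alternatives were centring, scaling, fewer arrays required, other variance estimates, unaveraged features, stricter thresholds, named genes only, symbols by update and each prep left out.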

Additional observations from a re-analysis of the deposited data

How the results depend on the processing

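No paired analysis was possible because there is just 1 group of arrays. Of the 11 called members, *hsp-4*, *hsp-3*, *hsp-1* and *dnj-7* kept their calls in all 9 settings other than the stricter thresholds and the fit without moderation. Leaving out 1 prep gave 5 to 6 higher and 1 to 2 lower members, 15 to 18 higher and 6 to 10 lower other folding genes, and 1804 to 2055 higher and 1337 to 1776 lower rows, with fewer arrays fitted. Without moderation of the variance limma called 0 members, 0 other folding genes and 0 rows in either direction. Only 2 degrees of freedom per row remained there. In that fit 12 of the 41 members, 31 other folding genes and 4214 of the 19292 rows had an unadjusted p under 0.05. Stricter thresholds left 0 lower members, at an adjusted p under 0.01 as well as at 2-fold or more, with 5 lower other folding genes at 0.01 and 1217 and 1168 lower rows. Median centring gave 2346 higher and 1707 lower rows and ended 1 member's call (*dnj-4*).

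Signs turned only in members that did not pass. Median centring gave 0.0247 for *dnj-12* and 0.0361 for *dnj-23*, and scaling after it 0.0199 and 0.0131. Leaving out 1 prep gave these ranges of means that cross 0: -0.0051 to 0.13 for *dnj-1*, -0.0066 to 0.088 for *pfd-1*, -0.21 to 0.22 for *dnj-16*, -0.094 to 0.71 for *cct-5*, -0.15 to 0.10 for *dnj-12*, -0.43 to 0.026 for *dnj-15*, -0.13 to 0.28 for *dnj-17*, -0.41 to 0.12 for *dnj-18*, -0.032 to 0.67 for *dnj-2*, -0.18 to 0.20 for *dnj-23* and -0.082 to 0.10 for *dnj-5*. The cause was not tested.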

Other observations

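A single feature is annotated to *dnj-10*, which encodes a mitochondrial J protein, together with *gpr-1* and *gpr-2*, and so was not counted among the 41 genes. Preps 1, 2 and 3 gave log2 ratios of 1.13, 0.63 and 0.91, and which of the 3 genes gave the signal cannot be told apart.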
